A study of Mus musculus with 12 samples.

Results

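Gene deserts are long stretches of the genome without protein-coding genes. The sites described here are 4789 H3K27me3 sites in such deserts, out of 101389 sites in the deposited list and 96090 on chromosomes 1 to 19. They were selected on position and width alone. A site had to be narrower than 10 kb, and its midpoint had to lie in no annotated gene, more than 200 kb from every transcription start site (TSS) of a protein-coding gene and more than 3 kb from every annotated TSS. The H3K27me3 signal itself entered only through the list, because a site is listed where the authors found a peak.

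The cells were immortalised mouse embryo fibroblasts (iMEF) of the clone NG3, so 1 clone stands for the model. Every group shared the same genotype: a Cre-ER recombinase had removed exon 4 from their own Ash2l, and the cells lived on a human ASH2L carried by a lentivirus and fused to an FKBP domain. ASH2L is a core subunit of the COMPASS/KMT2 complexes, which methylate lysine 4 of histone H3. The agent dTAG directs the fusion protein to the proteasome. H3K27me3 was profiled in 8 libraries. Untreated cells gave 2 of them, and 2 each came after 16 h, 24 h or 48 h with dTAG. Of the 4 input libraries, 2 were of untreated cells and 2 of the 48 h treatment. The list pools all of them and gives a position per site, with no value per library. From this list alone, no site could therefore be compared between times of treatment, and no replicate error exists. The depth behind a site is unknown, and no test was run. The paper also names a list of sites that changed significantly at each time, which was not used here. Shares are given with 95% Wilson intervals in places, which cover counting error only and treat sites as independent, which neighbours are not.

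H3K27me3 is the trimethylation of lysine 27 of histone H3. It is written by Polycomb repressive complex PRC2 and is known best from CpG-rich promoters of silent developmental genes, from where it can spread into broad domains. Outside such domains the mark is found at low levels over much intergenic chromatin. Deserts in mammals are AT-rich and repeat-rich as a rule, and some of them flank developmental regulators and hold their distal enhancers.

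Sequences of a few sites show what the list holds. The stretches below are from the mouse assembly mm10 (GRCm38.p6 sequence of RefSeq), plus strand, with every CpG dinucleotide in capitals. The first pair are the central 300 bases of the 2 widest sites, shown because wide Polycomb domains near promoters are usually built on CpG-dense sequence.
Spred2 side of the Meis1 to Spred2 desert, chr11:19523082-19523381: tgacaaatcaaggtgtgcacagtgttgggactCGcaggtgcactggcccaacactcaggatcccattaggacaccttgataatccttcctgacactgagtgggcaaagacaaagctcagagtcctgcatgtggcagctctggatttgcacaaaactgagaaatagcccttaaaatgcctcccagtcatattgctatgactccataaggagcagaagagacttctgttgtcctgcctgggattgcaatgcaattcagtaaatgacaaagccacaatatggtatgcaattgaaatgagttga
nearest gene Parp8, chr13:116708108-116708407: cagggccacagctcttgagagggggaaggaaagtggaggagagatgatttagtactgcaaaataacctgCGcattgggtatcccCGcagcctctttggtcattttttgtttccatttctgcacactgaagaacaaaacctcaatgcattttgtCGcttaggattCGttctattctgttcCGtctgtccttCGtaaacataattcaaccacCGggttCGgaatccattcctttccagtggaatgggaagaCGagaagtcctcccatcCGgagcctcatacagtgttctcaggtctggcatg
The first stretch holds 1 CpG and the second 10. The whole first site was 9981 bp wide with a GC content of 45.7%, and the second was 9969 bp wide with 45.1%.

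The next 3 stretches are the central 300 bases of the sites with the highest CpG ratio among those of at least 500 bp. The CpG ratio is the observed number of CpG dinucleotides over that expected from the C and G content of the same sequence.
nearest gene Kcnt2, chr1:141474983-141475282: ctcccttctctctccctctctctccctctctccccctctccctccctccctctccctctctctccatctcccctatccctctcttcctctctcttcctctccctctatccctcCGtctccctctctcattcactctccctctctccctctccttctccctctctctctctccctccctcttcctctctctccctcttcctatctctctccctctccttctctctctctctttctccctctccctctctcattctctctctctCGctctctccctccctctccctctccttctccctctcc
nearest gene Pkn2, chr3:143100432-143100731: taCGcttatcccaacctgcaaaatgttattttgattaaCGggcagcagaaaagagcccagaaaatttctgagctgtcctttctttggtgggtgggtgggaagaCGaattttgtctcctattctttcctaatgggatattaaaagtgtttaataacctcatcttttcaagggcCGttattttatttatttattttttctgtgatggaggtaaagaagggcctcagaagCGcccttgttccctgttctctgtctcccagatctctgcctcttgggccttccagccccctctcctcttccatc
nearest gene Irx5, chr8:92095159-92095458: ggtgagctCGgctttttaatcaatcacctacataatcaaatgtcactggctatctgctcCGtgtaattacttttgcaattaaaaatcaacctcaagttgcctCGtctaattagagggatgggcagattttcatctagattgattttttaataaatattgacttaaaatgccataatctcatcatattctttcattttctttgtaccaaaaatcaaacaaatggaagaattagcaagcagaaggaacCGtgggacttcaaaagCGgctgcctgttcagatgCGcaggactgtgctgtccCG
The Kcnt2 site had a CpG ratio of 1.73, but it lay wholly (100%) in soft-masked repeat. Its stretch is mostly C and T, with 172 C, 2 G and 2 CpG, so the high ratio comes with very few expected CpGs. The Pkn2 site, 2120 bp wide with a ratio of 0.73, and the Irx5 site, 601 bp wide with a ratio of 0.65, were 9.58% and 11.6% soft-masked. Their stretches hold 5 and 7 CpGs.

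The last pair are whole sites of 200 bp, the smallest width in the list. The first has the highest GC content of these, at 55.5%, and the second is at the low end, at 40.5%.
nearest gene 3110018I06Rik, chr12:107697609-107697808: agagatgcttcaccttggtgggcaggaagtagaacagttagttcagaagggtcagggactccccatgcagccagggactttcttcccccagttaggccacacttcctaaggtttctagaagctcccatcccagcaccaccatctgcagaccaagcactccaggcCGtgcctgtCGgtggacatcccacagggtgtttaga
nearest gene Tmpo, chr10:91733020-91733219: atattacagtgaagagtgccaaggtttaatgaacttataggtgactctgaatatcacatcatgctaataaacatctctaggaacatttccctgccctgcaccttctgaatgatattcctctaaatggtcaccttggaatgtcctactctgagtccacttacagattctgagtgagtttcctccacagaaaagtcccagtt
They hold 2 and 0 CpGs. By their midpoints all 7 of these sites are intergenic, and their distance to the nearest protein-coding TSS ran from 209.1 kb (3110018I06Rik) to 962.2 kb (Kcnt2).

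The desert sites were narrow and stood in small groups. Their median width was 504 bp, with quartiles of 314 and 1005 bp and a range from 200 to 9981 bp. The other intergenic sites that lay more than 3 kb from every TSS and were under 10 kb wide numbered 39417. The intronic sites within the same limits numbered 29542, and both groups had a median of 645 bp. Sites under 500 bp made up 49.5% of the desert sites (48.1% to 50.9%) and 39.6% of the other intergenic sites. At the wide end, 277 desert sites (5.78%) were at least 3 kb wide, against 10.7% of the other intergenic sites. The median was lower in the deserts on 18 of 19 chromosomes, and the exception was chromosome 13 with 636 bp against 608 bp. All desert sites together covered 1.02% of the bases in which a site could have been selected.

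A neighbour was close in most cases. Of the desert sites, 78.7% (77.5% to 79.9%) lay less than 3 kb from another listed site, and 63.1% less than 1 kb. The shares under 3 kb were 86.9% for other intergenic and 88.3% for intronic sites. Joined at gaps under 3 kb, the desert sites formed 2022 chains, of which 239 held at least 5 desert sites and together 38.3% of all. The chains with most sites held 29 each. One of them spanned 86.2 kb in the Mki67 to Mgmt desert on chromosome 7, with 50.6% of its bases inside sites. The other spanned 78.7 kb nearest to Kif2a, a kinesin gene, on chromosome 13, with 66.6% inside sites. Peaks under 10 kb can thus be pieces of larger stretches, and the count of sites depends on how the peak caller joined them.

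At the other extreme, 213 desert sites (4.45%) were more than 50 kb from any other site, against 1.36% of other intergenic sites. They were shorter, with a median of 354 bp, and richer in repeats, with a mean of 30.3% soft-masked bases against 17.2% at desert sites less than 1 kb from a neighbour. The share with 50% or more soft-masked bases was 27.2% against 6.75%. Reads from repeats can be misplaced by an aligner, and the part this has in the isolated sites was not tested.

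Broad domains were far away. The median distance from a desert site to the nearest site of at least 10 kb was 709.6 kb, against 258.0 kb for other intergenic sites and 209.7 kb for intronic ones. Only 357 desert sites (7.45%) had a broad site within 50 kb, against 25% of the other intergenic sites. These distances follow in part from the selection. The median site of at least 10 kb lay 9.69 kb from a protein-coding TSS, whereas a desert site had to lie more than 200 kb away. The width limit itself also removed 20 sites of at least 10 kb from the deserts.

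Site density fell steadily with distance from genes. Between 3 and 10 kb from a protein-coding TSS the list held 73.7 sites per Mb of eligible intergenic sequence, and between 100 and 200 kb it held 36.6. Inside the deserts the density was 24.3 sites per Mb at 200 to 300 kb, 12.9 at 300 to 500 kb, 3.13 at 500 to 1000 kb and 0.80 beyond 1000 kb. Of the desert sites, 2598 (54.2%) were thus in the first 100 kb, and 51 lay beyond 1000 kb. Over all deserts the density was 10.9 sites per Mb, against 45.5 for sites under 10 kb over the rest of the autosomes, a ratio of 0.239. Median width fell along with it, from 731 bp in the nearest bin to 534 bp at 200 to 300 kb and 349 bp in the farthest.

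The GC content of the sites did not follow. That of the territory fell from 43.2% in the nearest bin to 36.9% in the farthest, whereas the median over the central 200 bp of the sites stayed between 47.0% and 48.0% in all 9 bins. The share of soft-masked bases in a site rose from a mean of 17.5% at 200 to 300 kb to 33.6% beyond 1000 kb.

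**Figure D1:**
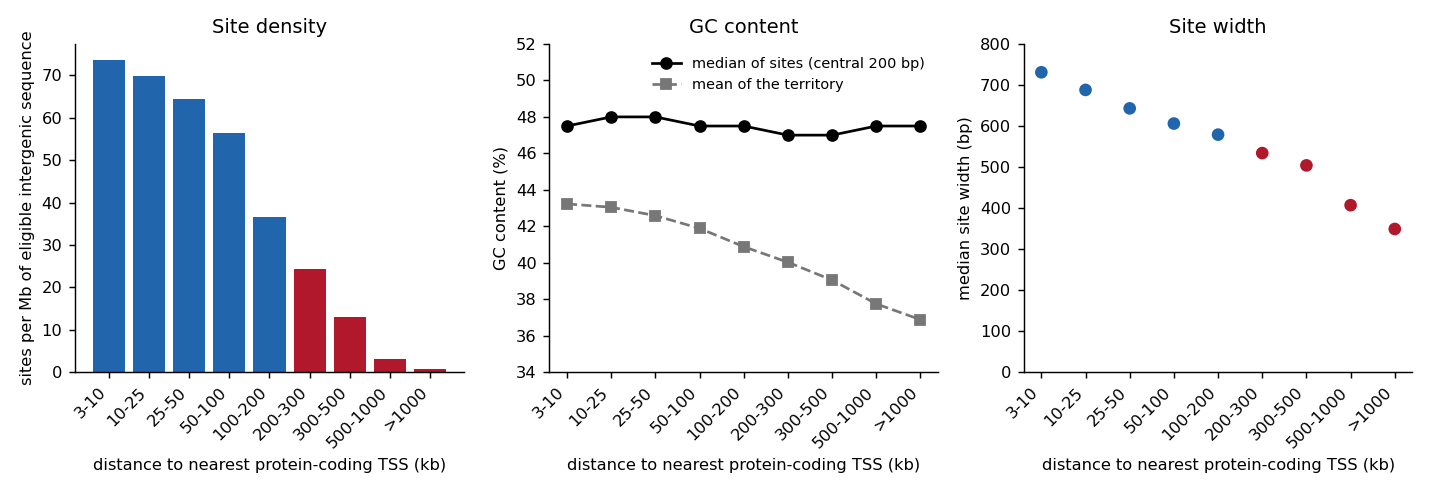
Density of H3K27me3 sites (sites per Mb, left), GC content (%, middle) and median site width (bp, right) by distance to the nearest protein-coding TSS (kb), with desert bins in red and bins nearer to genes in blue. Density and width fall over the 9 bins, from 73.7 to 0.80 sites per Mb and from 731 to 349 bp, while the median GC content of sites stays between 47.0% and 48.0% and that of the territory falls to 36.9%.

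To set the sequence of the sites against that of the deserts, the whole desert territory was cut into 2200735 tiles of 200 bp, and the central 200 bp of each site were measured in the same way. The median GC content was 47.0% at the sites and 38% over the tiles, of which 14.1% reached the sites' median. The sites were higher on all 19 chromosomes. Their quartiles were 44% and 50%, against 33.5% and 43.5% for the tiles. Other intergenic sites had a median of 47.5%. The tiles stand for the whole territory and not for the DNA next to the sites. Over the desert sites, the median GC content of the 50 kb block around them was 42.3%, so that a part of the gap lay between regions.

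CpG dinucleotides were scarce at the sites but scarcer over the desert territory as a whole. The median CpG ratio of the windows was 0.164 at desert sites, 0.164 at other intergenic sites and 0.120 over the tiles, and it was above the tiles on all 19 chromosomes. A window held at least 1 CpG at 81.4% of the sites (80.2% to 82.5%) and in 59.3% of the tiles. The difference was also present at matched GC content: among windows with 44% to 52% GC, which take in 2953 sites and 444539 tiles, the medians were 0.167 and 0.105 and the shares with a CpG 81.4% and 74.1%. In this range repeats moved the same way, with a mean of 17.2% soft-masked bases at sites and 46.8% in tiles, and their part in the CpG difference was not tested. Without matching, the means were 18.1% at desert sites, 23.3% at other intergenic sites and 40.4% over the tiles.

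**Figure D2:**
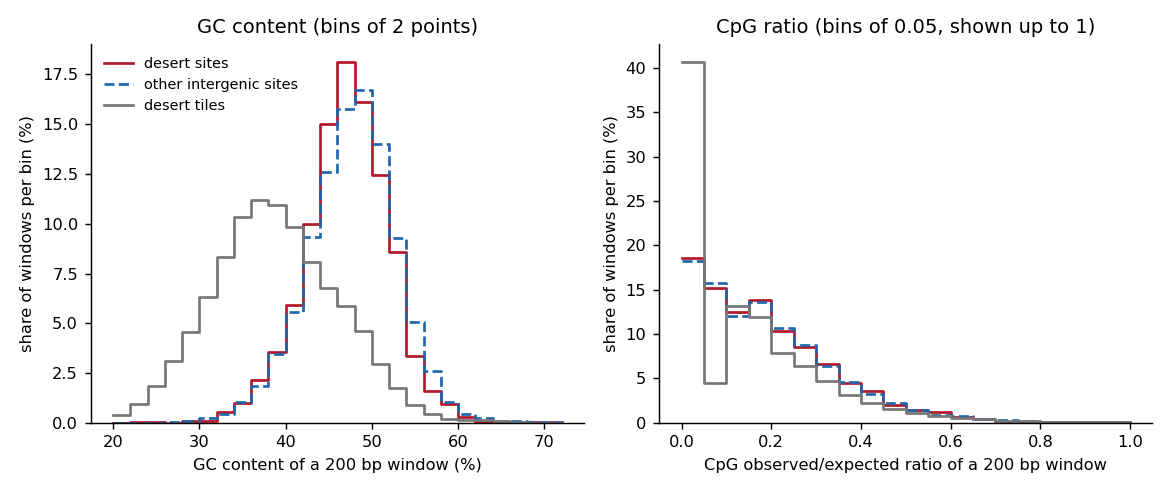
Share of 200 bp windows (%) by GC content (left, bins of 2 percentage points) and by CpG observed/expected ratio (right, bins of 0.05) for the central windows of desert sites (red), of other intergenic sites (blue, dashed) and for all tiles of the desert territory (grey). Both kinds of site peak between 46% and 50% GC with similar curves, whereas the tiles have a median of 38%, and the tiles fill the lowest CpG bin, which holds windows without any CpG, far more than the sites.

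CpG island-like sequence was almost absent. A CpG ratio of at least 0.6 over the whole site was reached by 22 desert sites (0.459%), of which 8 also had a GC content of at least 50% and 8 had 50% or more soft-masked bases. For other intergenic sites the share was 0.393%. Of the 22, 18 were under 500 bp. The 10 highest among sites of at least 500 bp ranged from 1.73 down to 0.53. Beside Kcnt2, a potassium channel gene, Pkn2, a protein kinase gene, and Irx5, they were nearest to Vrk2, Bmp2, Tmem182, Adgrl2, Zfp536, Shox2 and Irx2. Irx5, Irx2 and Shox2 encode homeodomain transcription factors, and the sites lay 262.3, 282.2 and 231.1 kb from their TSSs. Those at Vrk2 and Bmp2 were 82.3% and 91.9% soft-masked.

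The widest sites were of ordinary composition. The 10 widest measured 8998 to 9981 bp. Their GC contents lay between 43.3% and 47.7%, with 1 exception. They lay nearest to Spred2 (2 sites), Parp8, Npvf, Rybp, Cdh10, Zfp536, Arrdc4, Rtl1 and Mgmt. Rybp encodes a subunit of Polycomb repressive complex PRC1, and this site at chr6:100007736-100017497 was 220.5 kb from its TSS. Rtl1 is an imprinted gene derived from a retrotransposon, and its site at chr12:109885171-109894240 was 289.4 kb away. Of the 10 sites, 9 had another site within 1 kb. The exception in both respects was the site at chr15:19708476-19718191, 706.4 kb from Cdh10, a cadherin gene. It had a GC content of 53.0%, a CpG ratio of 0.51, 84.3% soft-masked bases and lay 201479 bp from the next listed site.

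Wider sites were poorer in GC. The median GC content over the whole site was 48.5% at the 165 sites of exactly 200 bp, 47.7% between 200 and 500 bp, 46.9% from 500 bp to 1 kb and 45.9% both from 1 to 3 kb and at 3 kb or more. The median CpG ratio over the whole site went the other way, from 0.126 at 200 bp to 0.201 at 3 kb or more. The length measured differs between the classes, however. Over the central 200 bp alone, the share of sites without a CpG showed no steady trend. It was 17.0% at 200 bp and 16.6% at 3 kb or more, and at most 19.6% in the classes between. The share with another site within 3 kb rose from 68.5% to 92.8% over the same classes. Sites of 200 bp sit at the lower limit of the list, which a peak caller sets.

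Short motifs were searched on both strands of the central 200 bp and over all tiles. The letters of the first E-box, CAGCTG, occurred at 12.4% of desert sites and in 5.28% of tiles, and within the range of 44% to 52% GC at 12.9% and 9.62%. The second E-box, CACGTG, which contains a CpG, occurred at 2.40% and 1.27%. The RUNX core TGTGGT was at 15.1% of sites and in 12.1% of tiles, and at 15.1% and 12.4% at matched GC content. The GC box GGGCGG, which also contains a CpG, was at 2.03% and 0.879%, but at matched GC content at 1.46% and 1.66%. The YY1 core GCCATNTT was at 3.84% of sites and in 4.77% of tiles, and at 3.62% and 7.06% at matched GC content. YY1 is the mammalian relative of the fly factor that recruits Polycomb complexes. The AP-1 letters TGANTCA were at 5.37% and 6.05%, and the TEAD letters GGAATG at 12.9% and 11.1%. At matched GC content the shares were close, with 5.96% and 5.67% for TGANTCA and 13.5% and 13.7% for GGAATG. Over the first 200 bp of a site, GGAATG was at 11.7%. The repeat GAGAGAGA was at 4.53% of sites and in 3.25% of tiles, but at matched GC content at 4.98% and 5.22%. The repeat CACACACA was at 4.36% of sites and in 5.00% of tiles, but at 5.05% when the first 200 bp of a site were taken. The telomere-like TTAGGG was at 8.27% of sites and in 7.25% of tiles. At other intergenic sites the shares were 11.7% for CAGCTG, 3.78% for GCCATNTT and 5.90% for CACACACA. At matched GC content the tiles held more soft-masked bases than the sites, with means of 46.8% and 17.2%. The part of repeats in the motif shares was not tested. A motif match is a description of letters and does not show that a factor was bound.

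Because GC content set the sites apart, density was also taken by the GC content of 50 kb blocks. In deserts it rose from 0.366 sites per Mb in blocks of at most 36% GC to 1.04 at 36% to 38%, 5.40 at 38% to 40%, 25.6 at 40% to 42% and 60.2 at 42% to 44%. It then levelled off at 60.4 and 50.5 in the last 2 classes. Blocks above 40% GC made up 21.6% of the desert territory and held 81.5% of the desert sites. In intergenic sequence up to 200 kb from a protein-coding TSS the same classes gave 0.461, 2.59, 10.4, 36.1, 80.3, 108.3 and 108.8 sites per Mb. At every class the desert value was the lower one. Deserts thus had fewer sites at a given GC content and also less GC-rich sequence. A preference of library preparation or sequencing for GC-rich fragments would move density in the same direction, and its part was not tested, since the input libraries have no values in the list.

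**Figure D3:**
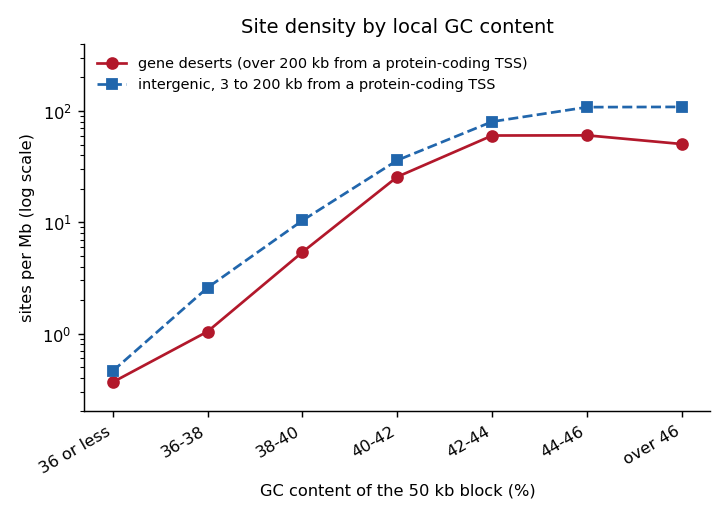
Site density (sites per Mb, log scale) by GC content (%) of 50 kb blocks, in gene deserts (red) and in intergenic sequence 3 to 200 kb from a protein-coding TSS (blue, dashed). Both rise from 0.366 and 0.461 sites per Mb in the lowest class up to 42% to 44% GC, and the desert points lie below the others in all 7 classes, for example 60.2 against 80.3 sites per Mb at 42% to 44%.

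The sites were spread very unevenly over the deserts. There were 825 deserts with 440.6 Mb of eligible sequence, and 369 of them held at least 1 site. The other 456 (55.3%) held none, and they made up 46.6% of the eligible sequence. Deserts with a site had a median GC content of 40.6% and those without one 38.8%. Among deserts with a site the median was 5 sites, and 62 had a single one. The 10 deserts with most sites held 985 sites, which is 20.6% of all in 1.91% of the eligible sequence, and the first 50 held 57.4% in 6.39%. Long deserts were poor in sites. The 133 deserts with at least 1 Mb of eligible sequence had 3.14 sites per Mb at a median GC content of 37.5%, and the 549 with less than 500 kb had 27.7 at 40.4%.

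The desert with most sites lies on chromosome 7 between Mki67, which encodes the proliferation marker Ki-67, and Mgmt, a DNA repair gene. At chr7:135916362-136694613 it held 175 sites, or 270.5 per Mb, and 41.8% of its eligible bases were inside a site. The sites had a median width of 881 bp, and 96.0% had another site within 3 kb. They lay along the whole length, with 92 sites (275.7 per Mb eligible) on the Mki67 side of the middle and 83 (264.9 per Mb) on the Mgmt side. The longest stretch between sites was 55.9 kb, of which only 2.69 kb was eligible. The desert between Meis1, a homeobox gene, and Spred2, an inhibitor of Ras signalling, on chromosome 11 was similar. It held 137 sites (288.2 per Mb), 70 on the Meis1 side and 67 on the Spred2 side, and no stretch over 31.9 kb between sites was free of them. On chromosome 13, between Cd83, an immune cell surface gene, and Jarid2, which encodes an accessory subunit of PRC2, there were 91 sites (311.1 per Mb), and 42.3% of the eligible bases were covered. Here 60 sites lay on the Cd83 side and 31 on the Jarid2 side, but the eligible sequence was uneven too, and the densities were 323.5 and 289.7 per Mb. The longest stretch between sites was 71.9 kb, of which 3.33 kb was eligible.

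In others the sites were gathered at 1 side. Between Igfbp7, a secreted binding protein of the growth factor axis, and the adhesion receptor gene Adgrl3 on chromosome 5, all 76 sites lay on the Igfbp7 side of the middle. After the last of them came 2472 kb of eligible sequence without a site. Between Tle4, a Groucho corepressor gene, and Psat1, an enzyme gene of serine synthesis, on chromosome 19, 67 of 82 sites lay on the Tle4 side, and 557.5 kb in the middle, all of it eligible, had none. Between Sall1 and Tox3 on chromosome 8, 71 of 78 sites were on the Sall1 side, where the density was 161.4 per Mb eligible against 15.5 on the other. Sall1 is a zinc finger regulator of limb and kidney development. Between Id2, an inhibitor of basic helix-loop-helix factors, and the ubiquitin ligase gene Rnf144a on chromosome 12, 83 of 102 sites were on the Rnf144a side, with 220.6 per Mb eligible against 83.1 on the Id2 side. The first 178.2 kb on the Id2 side had none, but only 6.28 kb of it was eligible.

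The remaining 3 of the 10 lay beside transcription factor genes. The deserts on either side of Tshz3, a zinc finger gene of the teashirt family, on chromosome 7 held 87 sites towards Zfp507 and 78 towards Zfp536. The longest stretch between sites was 43.1 kb in the first, with 37.1 kb eligible, and 14.4 kb in the second, with 2.66 kb eligible. Between Sox2, a regulator of pluripotent and neural progenitor cells, and the flippase gene Atp11b on chromosome 3 there were 79 sites, 47 of them on the Sox2 side. Within the 10 deserts the sites had similar composition. The median GC content per desert was between 44.8% and 48.4%, while the deserts themselves ranged from 37.2% (Igfbp7 to Adgrl3) to 44.9% (Cd83 to Jarid2).

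**Figure D4:**
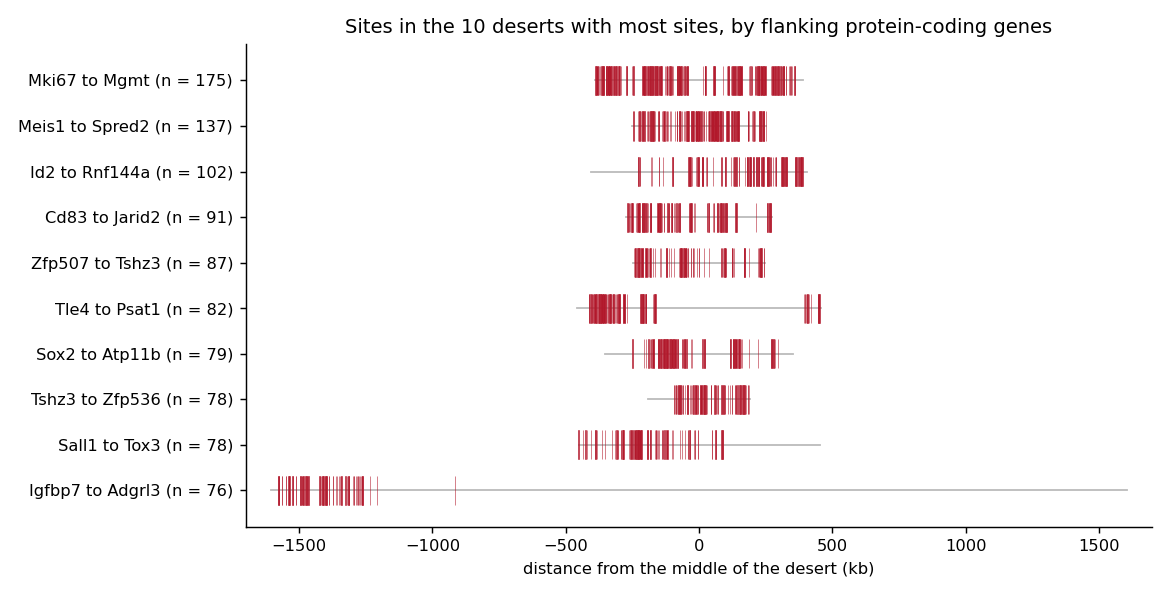
Positions of the sites (red bars, drawn to scale but at least a hairline wide) in the 10 deserts with most sites, by distance from the middle of each desert (kb), with the desert as a grey line and the flanking protein-coding genes and number of sites on the left. The sites run through the whole of the Mki67 to Mgmt and Meis1 to Spred2 deserts, whereas all 76 sites of the Igfbp7 to Adgrl3 desert lie on the side of Igfbp7.

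The 5 longest deserts without any site, ranked by eligible sequence, lay between Pcdh20 and Pcdh9, between Cntnap5b and Cdh20, between Nudt12 and Efna5, between Stim2 and Pcdh7, and between Zeb2 and Acvr2a. Their eligible sequence ran from 3884 kb down to 2751 kb, and their GC content was between 36.2% and 37.9%. Pcdh20, Pcdh9 and Pcdh7 are protocadherin genes and Cdh20 is a cadherin gene. Efna5 encodes an ephrin ligand. Genes of these families also flank long deserts that hold sites, for example Cdh8 to Cdh11 with 3 sites. Zeb2 is a zinc finger regulator and the sole member of the developmental regulator list among these 10 genes.

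The genes next to the sites were then read against 4 lists, namely developmental regulators (transcription factors such as the Hox, Sox, Pax, Tbx and Irx families), signalling ligands and their inhibitors, neural adhesion and synapse genes, and receptor gene clusters. A developmental regulator was the nearest protein-coding gene for 699 desert sites, or 14.6% (13.6% to 15.6%), whereas it was so for 4.77% of the tiles. For other intergenic sites the share was 5.69%, against 4.10% of the tiles of their own territory. The desert sites were above the tiles on 15 of 19 chromosomes. The regulators with most sites were Meis1 (73), Sall1 (71), Tshz3 (67), Nkx6-1 (48), Sox2 (47) and Foxa2 (36), and no others had more than 30. Among these 6, the sites at Foxa2, a forkhead factor of the endoderm, had the highest median width, 1318 bp, and those at Tshz3 the lowest, 486 bp.

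This share depended on a few deserts. Without the 10 deserts with most sites it was 11.2%, and with every desert that held a site counted once it was 7.58%. The tile share of 4.77% takes in all deserts, also those without a site, and weights them by eligible sequence. No background was computed in the manner of these reduced shares, so whether they still exceed it was not tested. Sites were not more frequent on the regulator's side of a desert than its sequence was. In deserts with a listed regulator at 1 edge only, 45.4% of 1328 sites were nearer to the regulator than to the other gene, against 49.4% of the tiles.

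GC content moved with the regulators too. The 101 deserts with a listed regulator at an edge had 34.3 sites per Mb and a median GC content of 41.1%, and 65.3% of them held a site. The other 724 had 8.43 sites per Mb and 39.2%, and 41.9% held a site. Within classes of GC content the difference was smaller at the low end. It was 2.60 against 1.76 sites per Mb at 36% to 38% GC, 8.52 against 7.37 at 38% to 40%, and 37.3 against 25.9 at 40% to 42%. In the classes above it was 104.9 against 40.5 at 42% to 44%, and 94.3 against 52.6 above 44%. Those higher classes hold 21 and 18 deserts with a regulator. Without the 10 deserts with most sites the densities over all classes were 22.7 and 7.46.

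**Figure D5:**
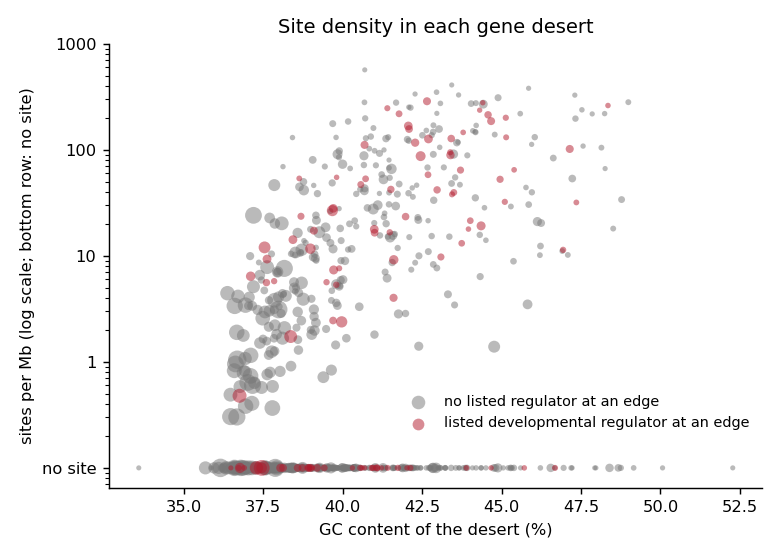
Each of the 825 gene deserts by its GC content (%) and its site density (sites per Mb, log scale, with deserts without a site in a row at the bottom); the area of a point grows with the eligible length, and deserts with a listed developmental regulator at an edge are red. Taken by class, density rises with GC content in both kinds up to 42% to 44% GC. The densest desert with a listed regulator, Meis1 to Spred2, has 288.2 sites per Mb.

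Neural adhesion and synapse genes showed the opposite. They were nearest for 2.40% of the desert sites but for 19.4% of the tiles. Other intergenic sites were below their tiles as well, with 2.30% against 4.10%. Csmd1, Cdh13 and Ncam1 had most, with 11, 10 and 10 sites. The 143 deserts with such a gene at an edge had 3.57 sites per Mb and a median GC content of 37.8%, and the other 682 had 14.6 and 39.7%. A site was held by 47.6% and 44.1% of them. Within classes of GC content the direction was not the same throughout. Deserts with such a gene had 1.58 against 1.99 sites per Mb at 36% to 38%, but the higher density, 8.82 against 7.11, at 38% to 40%, and these classes hold 117 of the 143 deserts. In the higher classes their density was the lower one, with 18.4 against 28.8 at 40% to 42%, 29.1 against 61.1 at 42% to 44% and 21.6 against 63.8 above 44%, where 12, 5 and 7 deserts had such a gene.

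Signalling genes were nearest for 47 sites (0.981%, against 1.83% of tiles), and 40 of these 47 belonged to Bmp2, a bone morphogenetic protein gene. Receptor gene clusters were nearest for 32 sites (0.668%, against 0.222% of tiles), of which 17 were at the olfactory receptor gene Olfr1505 and 15 at the taste receptor gene Tas2r119. The desert share was above the tiles on 2 chromosomes only, and for other intergenic sites it was below, with 1.25% against 4.14%.

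Enhancers of the RefSeq functional annotation, most of them from transgenic embryo assays, were touched by 16 desert sites, or 0.334% (0.206% to 0.542%). The share was 0.193% for other intergenic and 0.0846% for intronic sites. Of 55 such enhancers centred in the desert territory, 11 (20%, with an interval of 11.6% to 32.4%) overlapped a desert site. In the intergenic sequence nearer to genes, 71 of 310 (22.9%) overlapped an intergenic site, with an interval of 18.6% to 27.9% that holds the desert share. For 6 of the 11 the annotation names the limb, as it does for 23 of the 55. The others include an enhancer of the ventral sclerotome, overlapped by a site of 7284 bp at chr2:147685048-147692331, 320.4 kb from Pax1. Another is a hindbrain and midbrain enhancer, overlapped by a site of 3675 bp at chr8:89270304-89273978, 228.0 kb from Sall1. Pax1 is a paired-box factor of the sclerotome. No enhancer activity was measured in these cells.

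Among non-coding genes, pseudogenes and long RNAs were the usual neighbours. The nearest gene of any non-coding kind was a processed pseudogene for 36.3% of the sites and a lincRNA for 36%, at a median distance of 44.1 kb. A microRNA gene was nearest for 266 sites (5.55%). The RefSeq annotation differs from the one used for selection. Of the desert sites, 615 (12.8%) lay inside one of its genes, against 12.6% of other intergenic sites. The 615 desert sites had nearly the same medians as the other desert sites. Width was 509 against 504 bp, GC content 46.9% against 47.0%, and CpG ratio 0.180 against 0.171.

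Chromosomes differed widely. Chromosome 7 had most desert sites, 569, at 35.5 per Mb of eligible sequence. Chromosome 19 followed with 29.8 per Mb and chromosome 11 with 18.1. The lowest were chromosome 16 with 2.73 per Mb, chromosome 4 with 3.92 and chromosome 3 with 4.28. Of the 569 sites on chromosome 7, 340 were in the 3 deserts there that are among the 10 with most sites.

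Sites at the edge of the selection give its sharpness. The 5 sites just inside the distance limit lay 200032 to 200240 bp from a protein-coding TSS, and the 5 just outside 199810 to 199900 bp. For the distance to any TSS the values were 3004 to 3051 bp inside and 2961 to 2999 bp outside. For width they were 9716 to 9981 bp inside and 10053 to 11308 bp outside.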

How the data were processed

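ChIP-seq of H3K27me3 covered 8 libraries of iMEF cells, with 4 inputs. The 1 list used here has a chromosome and 2 positions in bp for each site and no other value (0 columns of single libraries). The authors deposited it pooled over all samples. Before that, per the study's methods, Trim Galore had trimmed the reads, BWA had mapped them to mm10, SAMtools had filtered them, Picard had merged replicates and MACS had found broad peaks. Their annotation was GENCODE release M25. The submitters' processing notes also name deepTools and DESeq2. Versions, cutoffs and the way peaks of several samples were joined are not given in the sources used here.

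Starts were read as counted from 0, since widths then begin at 200 bp, and are printed counted from 1. TSSs and genes came from GENCODE M21 on GRCm38, sequence and RefSeq enhancers from GRCm38.p6. Repeats are the soft-masked bases of that sequence. A desert is a maximal autosomal interval more than 200 kb from every protein-coding TSS, and its eligible sequence is what lies outside genes and more than 3 kb from every TSS, without assembly gaps. Tiles are all 200 bp windows of that sequence, taken in full without drawing. GC content and CpG ratios leave out assembly gaps, and 50 kb blocks gave local GC content. The scripts (Python 3, with numpy, pandas and scipy) were tested on simulated sites.

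No test was made, since there is 1 value per site and no replicate. The members and lists were chosen with earlier results of these data known. Genes are named by rule: those flanking the 10 deserts with most sites and the 5 longest without a site, and the nearest gene of the 10 widest sites and of the 10 sites of at least 500 bp with the highest CpG ratio. Genes with most sites on each list, those named with enhancers, Kif2a, Cdh8 and Cdh11 were added after their values were seen. Of the 11 stretches that a rule sets, 7 are printed. Alternatives changed the distance, the TSSs, the width, the joining of sites, the windows and the treatment of gaps.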

Additional observations from a re-analysis of the deposited data

How the results depend on the processing

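No paired analysis was possible because the list holds no value per library and no result comes from a test. The number of desert sites followed the distance limit, with 10986 sites at 100 kb, 2191 at 300 kb and 481 at 500 kb, and was 2417 with sites of at least 500 bp and 1779 after merging sites less than 3000 bp apart. The median width was 542, 476 and 398 bp at those 3 distances, 995 bp with sites of at least 500 bp, 899 bp after merging and 482.5 bp without the 10 deserts with most sites. The median GC content stayed within 1 percentage point. It was 47.2% at 100 kb, 47.1% at 500 kb and with gene 5′ ends only, 46.4% with sites of at least 500 bp, 46.2% after merging and 47.1% outside soft-masked repeats. The median CpG ratio was 0.168 at 300 kb, 0.159 at 500 kb, 0.182 with sites of at least 500 bp, 0.164 over the central 200 bp, 0.183 outside repeats and 0.168 without the 10 deserts. The density ratio of deserts to the rest was 0.389, 0.148 and 0.056 at 100, 300 and 500 kb, 0.263 with gene 5′ ends only, 0.196 with sites of at least 500 bp, 0.335 after merging and 0.212 with gaps kept, so it was below 1 throughout. The share near another site was 63.1% at a gap of 1 kb and 88.2% at 10 kb. The share with a regulator nearest was 29.7% when either flanking gene counted, 7.58% with each desert counted once and 11.2% without the 10 deserts, the last being chosen after seeing the data. The remaining 18 of 53 alternative values of these results lay within the interval of the main value or, for counts, within 1.5 times it. The cause of the shifts was not tested beyond what each setting changes by construction.

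The list does not tell in how many libraries a site was found. Depth and background cannot be judged from it, sites in repeats depend on how reads were placed, and an annotation of another release would move sites in or out near the limits.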
